A study of Mus musculus with 11 samples.

Results

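The mouse mature miRNAs mmu-miR-30a-5p, mmu-miR-30a-3p and mmu-miR-30c-2-3p are the products that belong only to the Mir30a and Mir30c-2 hairpins, which lie 19361 bases apart on chromosome 1. They are 3 of the 2128 rows of the deposited count table, which carries 1978 mature names, and each was matched by its exact name. They were picked because their counts were high in virtual memory compared with true naive CD8+ T cells in these same libraries, so that comparison is given below as a description, without a test. The fourth mature product of the locus, miR-30c-5p, was not among them, since an identical mature sequence also comes from the Mir30c-1 hairpin on chromosome 4.

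Small RNA was sequenced in 11 libraries of CD8+ T cells from mouse spleen, in a design that crossed 2 cell subsets with 2 kinds of mice, called dirty and clean by the labels. Virtual memory (VM) cells, which carry memory markers without having met foreign antigen, were sorted as CD4- CD8+ CD49dlo GFP+ CD44hi cells, and true naive (TN) cells as the CD44lo cells of the same gate; the labels call both populations stamped. The groups were Dirty_VM (3 libraries), Clean_VM (3), Dirty_TN (3) and Clean_TN (2, numbered 2 and 3). The strain and age of the mice, what dirty mice were exposed to and what GFP marked are not stated in the labels used here. No label says that replicates came from separate animals, so p-values measure the spread between these libraries, which may be technical.

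An miRNA hairpin is cut into a short duplex, and either strand, the 5p or the 3p arm, can be loaded into an Argonaute protein, where its seed (bases 2 to 8) pairs with target mRNAs. The 5p arms of the miR-30 family share a seed, while the 3p arms fall into other seed groups, so 1 hairpin can supply products with separate targets. Family members are known to repress BECN1, an autophagy gene, and PRDM1, which encodes the transcription factor Blimp-1, in human cells.

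The sequences show which products can be told apart by seed and which differ from a relative at a few bases only; capitals mark the seed, and all are from RefSeq on GRCm38.p6, read 5′ to 3′. The locus arms lie on the plus strand at chr1:23272274-23272295, chr1:23272315-23272336 and chr1:23291754-23291775, in this order.
miR-30a-5p: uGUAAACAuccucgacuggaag
miR-30a-3p: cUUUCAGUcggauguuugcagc
miR-30c-2-3p: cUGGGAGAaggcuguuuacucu
The relatives that matched RefSeq by name, share those seeds and had counts in these libraries follow; miR-30b-5p and miR-30d-5p are placed with the 5p arms by their family name alone.
miR-30c-5p: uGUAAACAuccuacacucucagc
miR-30e-5p: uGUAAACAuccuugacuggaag
miR-30e-3p: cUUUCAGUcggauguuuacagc
miR-30c-1-3p: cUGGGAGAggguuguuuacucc
Counting from 1 at the 5′ end, with the base of the chromosome 1 product first, miR-30a-5p and miR-30e-5p differed at 1 base (C13U), as did miR-30a-3p and miR-30e-3p (G18A). miR-30c-2-3p and miR-30c-1-3p differed at 3 bases (A9G, C12U and U22C). How the counting treated reads that fit both members of such a pair is not given in the sources used here, so values within a pair carry that uncertainty.

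The hairpins are shown with both mature arms in capitals, since the balance of the arms is described below.
Mir30a: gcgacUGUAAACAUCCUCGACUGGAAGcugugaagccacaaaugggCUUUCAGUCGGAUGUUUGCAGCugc
Mir30c-2: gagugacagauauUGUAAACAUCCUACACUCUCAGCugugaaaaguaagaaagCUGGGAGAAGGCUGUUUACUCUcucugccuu
Mir30a spans 71 bases at chr1:23272269-23272339 with 19 bases between its arms, and Mir30c-2 spans 84 bases at chr1:23291701-23291784 with 17 between its arms. In the GENCODE M21 annotation of the same build, Mir30c-2 lies inside the single exon of Gm27028, a long intergenic non-coding RNA gene at chr1:23291537-23291935 on the same strand. Mir30a overlaps no other annotated gene. The hairpins Mir30c-1 and Mir30e lie together on chromosome 4, and Mir30b and Mir30d on chromosome 15.

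All levels below are given in counts-per-million units (CPM), with each library total scaled by TMM, edgeR's trimmed mean of M-values. The 5 shallower libraries had totals of 2614396 to 4116012 counts and the 6 deeper ones 9399645 to 16312004 counts, and a count of 0 would allow a level of up to 0.180 to 1.23 CPM (3 counts), a limit that covers counting error only. All 3 products were counted in every library and passed the filter on low counts. The lymphocyte miRNAs (miR-150-5p, both arms of miR-142a, miR-342-3p and miR-155-5p) summed to 88370 to 103200 CPM in Dirty_VM, 85260 to 112900 in Clean_VM, 75290 to 142000 in Dirty_TN and 138400 to 146800 in Clean_TN.

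All 3 products were higher in VM than in TN cells in both kinds of mice, and the 3p arms by more than the 5p arm. mmu-miR-30a-5p, which carries the family seed, had 600.1, 1162 and 496 CPM in Dirty_VM libraries 1 to 3, against 412, 291 and 272 CPM in Dirty_TN. In clean mice it had 1658, 697 and 1322 CPM in Clean_VM, against 330.2 and 358 CPM in Clean_TN libraries 2 and 3. Every VM library lay above every TN library, but VM libraries of the same group spanned more than the gap between Dirty_VM and Dirty_TN.

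The 3p arm of the same hairpin was more even. mmu-miR-30a-3p had 312, 399 and 336 CPM in Dirty_VM, against 106, 117 and 74.5 CPM in Dirty_TN, and 592, 662 and 712 CPM in Clean_VM, against 92.4 and 113 CPM in Clean_TN. Its libraries formed 3 levels that did not overlap, with Clean_VM highest, Dirty_VM next and both TN groups together at the bottom.

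The product of the second hairpin followed the same order at a lower level. mmu-miR-30c-2-3p had 37.8, 68.2 and 43.9 CPM in Dirty_VM, against 15.8, 8.08 and 8.01 CPM in Dirty_TN, and 112, 105 and 97.3 CPM in Clean_VM, against 10.5 and 10.5 CPM in Clean_TN. The fewest counts were 28, in Dirty_TN library 2 (8.08 CPM), with an exact 95% Poisson interval of 5.37 to 11.7 CPM for counting error. Its Dirty_VM and Clean_VM libraries did not overlap, while the TN libraries of both kinds of mice did.

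**Figure D1:**
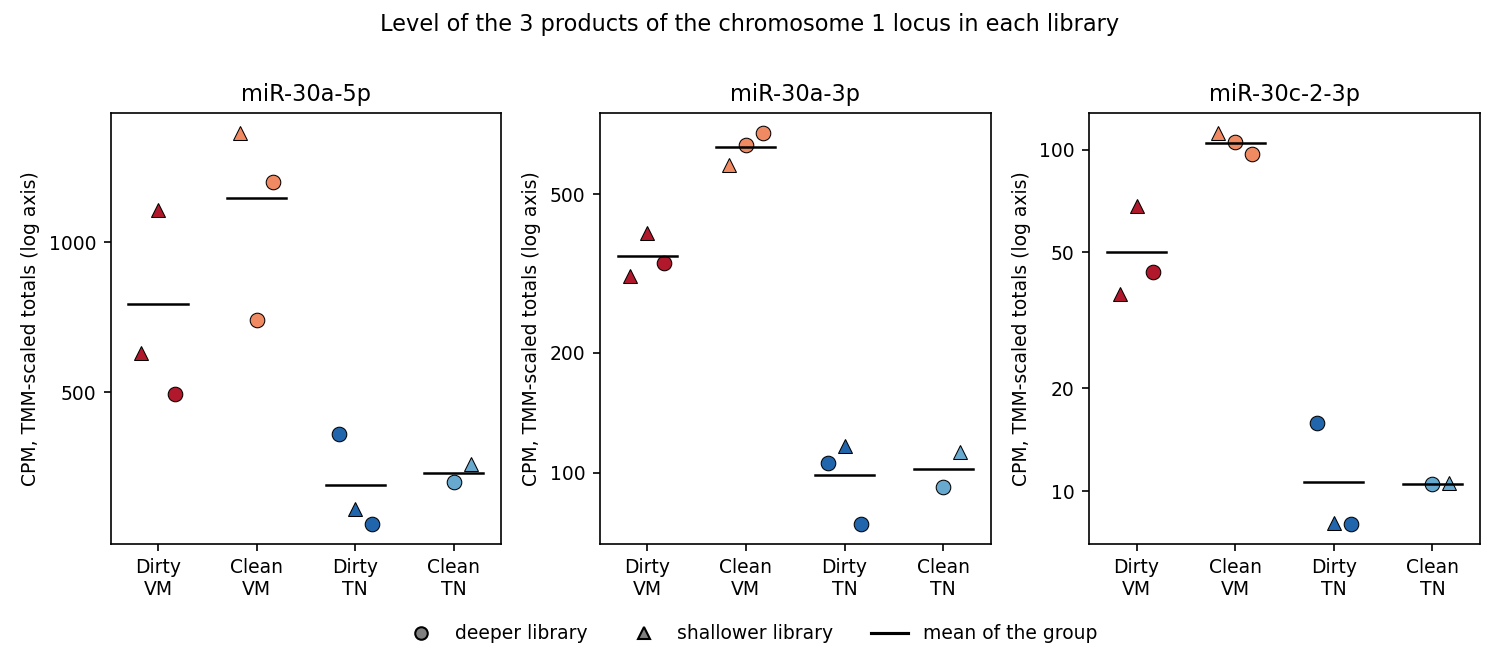
CPM (log axis, with a scale of its own in each panel) of each product in each of the 11 libraries by group; circles are the 6 deeper libraries, triangles the 5 shallower ones, and lines are group means. All VM libraries lie above all TN libraries in the 3 panels, and for both 3p arms the Clean_VM libraries lie above the Dirty_VM libraries.

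On the log2 scale, the VM minus TN difference of miR-30a-5p was 1.21 ± 0.35 (edgeR estimate ± SE) in dirty mice, a fold of 2.31, and 1.83 ± 0.41 in clean mice, a fold of 3.56. The difference was 1.82 ± 0.21 in dirty and 2.68 ± 0.25 in clean mice for miR-30a-3p, folds of 3.53 and 6.40. For miR-30c-2-3p it was 2.22 ± 0.30 in dirty and 3.31 ± 0.37 in clean mice, folds of 4.65 and 9.95. Over the 545 rows that passed the filter on low counts, the median difference was 0.02 in dirty and 0.08 in clean mice.

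In the difference averaged over dirty and clean mice, miR-30c-2-3p ranked 6 from the top of the 545 rows, miR-30a-3p 9 and miR-30a-5p 32. Libraries without overlap, higher in VM cells, are the rule's own pattern and were not rare: 16.9% of the 545 rows showed it in dirty mice, 28.3% in clean mice and 7.52% in both. Since these cells are bulk samples, more cells with the miRNA and more of it per cell cannot be told apart.

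These differences were not the same at both depths. In dirty mice, the log2 ratio of the mean level of miR-30a-5p in Dirty_VM to that in Dirty_TN was 1.60 among the shallower libraries (2 Dirty_VM and 1 Dirty_TN) and 0.54 among the deeper ones (1 and 2). The shallower and deeper ratios in dirty mice were 1.61 and 1.90 for miR-30a-3p, and 2.71 and 1.88 for miR-30c-2-3p. In clean mice, with 1 Clean_VM and 1 Clean_TN library among the shallower and 2 and 1 among the deeper, they were 2.21 and 1.61 for miR-30a-5p, 2.39 and 2.89 for miR-30a-3p, and 3.41 and 3.27 for miR-30c-2-3p. All 12 ratios were above 0, and the fold of miR-30a-5p differed by more than 1.5 times between the depths in both kinds of mice and that of miR-30c-2-3p in dirty mice. With 1 or 2 libraries per group at each depth, depth cannot be told apart from the spread between libraries.

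miRNAs of other cell types were present and some sums were larger in VM libraries. The 5 erythroid miRNAs (arms of miR-451a, miR-144 and miR-486) summed to 122 to 200 CPM in Dirty_VM and 129 to 261 in Clean_VM, against 68.9 to 148 in Dirty_TN and 59.9 to 76.7 in Clean_TN. The 2 arms of endothelial and platelet miR-126a summed to 29.6 to 53.0 CPM in Dirty_VM and 21.7 to 47.7 in Clean_VM, against 15.3 to 29.7 in Dirty_TN and 18.4 to 19.3 in Clean_TN. The 7 stromal miRNAs (arms of miR-143, miR-145a, miR-199a and miR-214) summed to 78.1 to 112 CPM in Dirty_VM and 64.0 to 108 in Clean_VM, against 49.5 to 75.3 in Dirty_TN and 41.5 to 52.6 in Clean_TN.

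The 7 epithelial miRNAs (arms of miR-200a, miR-200b, miR-200c, miR-141, miR-429, miR-205 and miR-203) summed to 2757 to 3756 CPM in Dirty_VM and 2411 to 3276 in Clean_VM, against 2279 to 3182 in Dirty_TN and 2167 to 2310 in Clean_TN. The 4 hepatocyte and muscle miRNAs (miR-122-5p, miR-1a-3p, miR-133a-3p and miR-206-3p) summed to 1248 to 2489 CPM in Dirty_VM and 1224 to 2755 in Clean_VM, against 929 to 1835 in Dirty_TN and 860 to 1088 in Clean_TN. In clean mice, the sums of these 5 lists were higher in every VM library than in every TN library, whereas in dirty mice only the stromal sums were without overlap. Single members did not all follow the sums: miR-133a-3p, miR-199a-3p and miR-203-3p overlapped between Clean_VM and Clean_TN. The 2 myeloid arms of miR-223 stayed at or below 3.61 CPM in sum in every library. No member of any list was at 0 in all libraries, and the part of these cell types in the levels of the 3 products was not tested.

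The arms of the Mir30a hairpin did not move in proportion. Nor did those of Mir30e: VM minus TN, averaged over both kinds of mice, was -0.69 for miR-30e-5p and 0.28 for miR-30e-3p (edgeR log2 estimates, with tests given below). The counts of miR-30a-5p were 1.93, 2.91 and 1.48 times those of miR-30a-3p in Dirty_VM, against 3.89, 2.50 and 3.65 times in Dirty_TN. In clean mice they were 2.80, 1.05 and 1.86 times in Clean_VM, against 3.57 and 3.17 times in Clean_TN. The log2 ratio was lower in VM than in TN cells by -0.70 on average in dirty and -0.93 in clean mice, with Dirty_VM library 2 above the lowest Dirty_TN library. Ligation and amplification differ between small RNAs, so the size of the ratio is not a ratio of molecules, whereas the same ratio can be set side by side between libraries.

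The ratio did not differ detectably between dirty and clean mice. Its log2 difference, dirty minus clean, was 0.08 averaged over the subsets (exact permutation test within subsets, two-sided, p = 0.745, adjusted p = 0.745 over 4 such tests), with 0.20 in VM and -0.04 in TN cells. With 200 relabellings, the smallest p this test can give is 0.005.

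The balance between the hairpins was read from their 3p arms. miR-30c-2-3p had 0.122, 0.171 and 0.131 times the counts of miR-30a-3p in Dirty_VM, against 0.150, 0.0705 and 0.108 times in Dirty_TN, and 0.189, 0.158 and 0.137 times in Clean_VM, against 0.114 and 0.0947 times in Clean_TN. VM minus TN differences of the log2 ratio were 0.42 in dirty mice, where the libraries overlapped, and 0.62 in clean mice, where they did not. Dirty minus clean, the log2 ratio differed by -0.09 (exact permutation test, two-sided, p = 0.7, adjusted p = 0.745), with -0.20 in VM and 0.01 in TN cells.

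miR-30a-5p also spread more among VM libraries than its 3p arm did. Its coefficient of variation was 47.6% in Dirty_VM and 39.8% in Clean_VM, against 13.0% and 9.20% for miR-30a-3p in the same groups. Within Clean_VM, library 2 held the lowest level of miR-30a-5p, while its miR-30a-3p was the middle value. The same library was lowest for miR-30e-5p, which had 1536, 689 and 927 CPM in Clean_VM libraries 1 to 3, and for miR-30d-5p, which had 16230, 10951 and 16845 CPM. It was not lowest for the other 5p arms. Library 2 was highest for miR-30b-5p, which had 850, 972 and 503 CPM, and in the middle for miR-30c-5p, which had 4953, 4330 and 4092 CPM.

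Against the relatives that share their seeds, the 3 products took a larger share in VM cells. Of the 5p arms of miR-30a to miR-30e together, miR-30a-5p made up 3.06%, 4.66% and 2.15% in Dirty_VM, against 1.33%, 1.23% and 1.08% in Dirty_TN, and 6.57%, 3.95% and 5.58% in Clean_VM, against 1.27% and 1.42% in Clean_TN. It remained a minor member of that pool in each library. miR-30d-5p had the highest level of the pool in each group's mean, with 12677 CPM in Dirty_VM, 14675 in Clean_VM, 19145 in Dirty_TN and 16242 in Clean_TN.

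The 3p pairs held larger shares. Of miR-30a-3p and miR-30e-3p together, miR-30a-3p made up 15.98%, 17.4% and 14.7% in Dirty_VM, against 4.23%, 4.89% and 4.89% in Dirty_TN, and 19.8%, 19.1% and 20.5% in Clean_VM, against 5.95% and 6.01% in Clean_TN. Of miR-30c-2-3p and miR-30c-1-3p together, miR-30c-2-3p made up 37.5%, 50.8% and 42.4% in Dirty_VM, against 21.9%, 11.9% and 13.4% in Dirty_TN, and 62.9%, 64.7% and 63.6% in Clean_VM, against 18.7% and 14.7% in Clean_TN. In every Clean_VM library miR-30c-2-3p thus outnumbered its chromosome 4 counterpart, and in every TN library it was the lesser of the pair. A share within a pair does not depend on the scaling of library totals, and both shares were without overlap between Dirty_VM and Clean_VM. The lower share in dirty mice was not confined to VM cells. For miR-30a-3p it was also without overlap between Dirty_TN and Clean_TN, whereas for miR-30c-2-3p the TN groups overlapped.

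**Figure D2:**
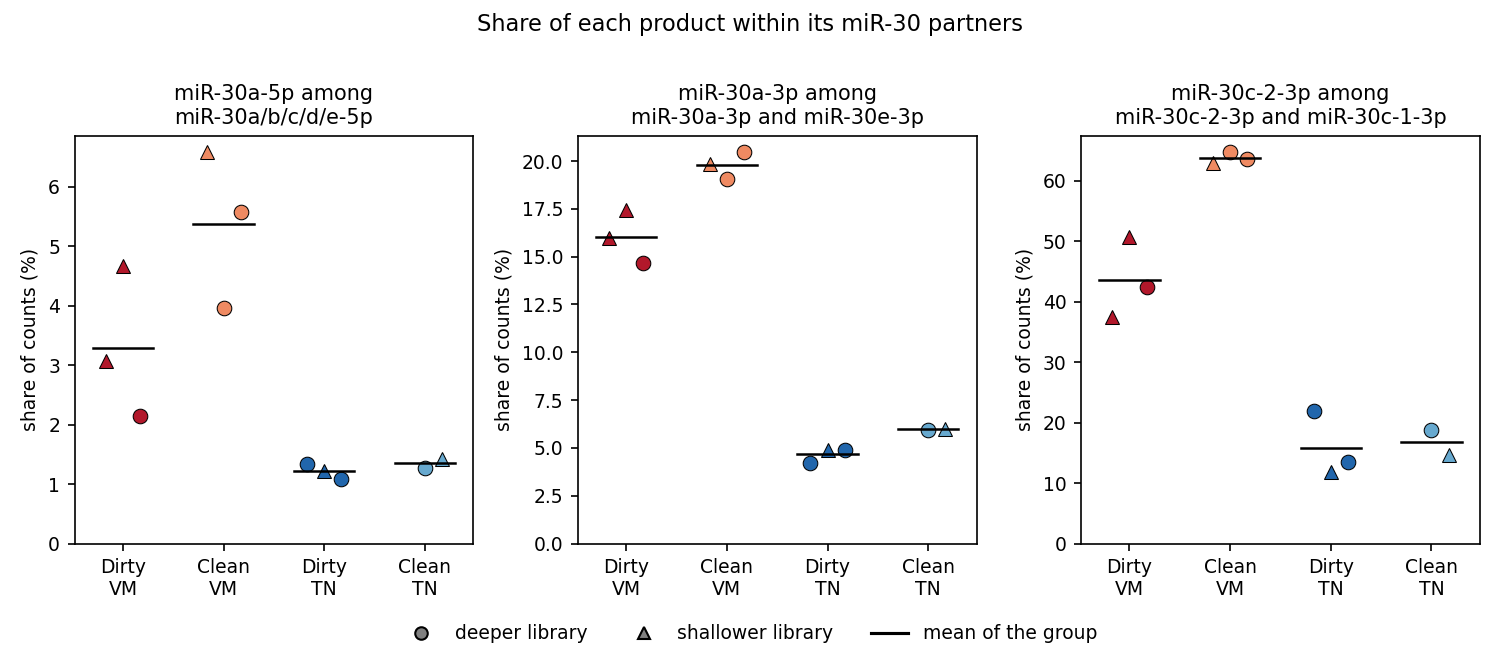
Share of counts (%, from 0) of each product among the miR-30 relatives named above its panel, in each of the 11 libraries by group; circles are the deeper libraries, triangles the shallower ones, and lines are group means. Shares are higher in VM than in TN libraries in all panels, and those of both 3p arms are lower in Dirty_VM than in Clean_VM. The share of miR-30a-3p is also lower in Dirty_TN than in Clean_TN.

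The summed 5p arms of the other family members were lower in the mean of VM than of TN cells, without passing after adjustment. The 5p arms of miR-30b, miR-30c, miR-30d and miR-30e summed to 21790 ± 2492 CPM in Dirty_VM (SD, n = 3) and 26299 ± 3788 in Dirty_TN (n = 3), and to 20959 ± 3531 in Clean_VM (n = 3) and 25228 ± 616 in Clean_TN (n = 2). The VM minus TN difference of this sum was -0.28 on the log2 scale, with -0.27 in dirty and -0.28 in clean mice, and did not pass after adjustment (exact permutation test within kinds of mice, two-sided, p = 0.035, adjusted p = 0.14 over 4 tests). Summed over miR-30c-5p and miR-30e-5p only, the arms whose seed was read from RefSeq, the difference was -0.048 (exact permutation test, two-sided, unadjusted p = 0.76). With miR-30a-5p added, the pool was 22543 ± 2714 CPM in Dirty_VM and 26624 ± 3860 in Dirty_TN, and 22185 ± 4011 in Clean_VM and 25572 ± 597 in Clean_TN. Dirty minus clean, the sum without miR-30a-5p differed by 0.06 (exact permutation test, p = 0.595, adjusted p = 0.745).

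Of the 9 other names of the miR-30 family, 8 passed the filter on low counts, and miR-30f was at 0 in every library. In the average over dirty and clean mice, 1 of the 8 fell and none rose by edgeR's quasi-likelihood test with Benjamini-Hochberg adjustment, where 23.7% of the 545 rows passed, 11.4% higher and 12.3% lower. That one was miR-30e-5p, which differs from miR-30a-5p at 1 base: it had 1049, 1455 and 851 CPM in Dirty_VM, against 1616, 1488 and 1886 CPM in Dirty_TN, and the Clean_VM values given above, against 1858 and 1830 CPM in Clean_TN. Its VM minus TN log2 difference was -0.69 ± 0.20 (adjusted p = 0.0255), with an adjusted p of 0.0685 without Clean_TN library 2 and of 0.433 in the 5 shallower libraries. The other abundant arms did not pass in this average: miR-30b-5p had -0.31 ± 0.24 (adjusted p = 0.380), miR-30d-5p had -0.37 ± 0.16 (adjusted p = 0.122), miR-30c-5p had 0.12 ± 0.13 (adjusted p = 0.538) and miR-30e-3p had 0.28 ± 0.15 (adjusted p = 0.207).

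The closest relatives of the 3p arms had smaller differences. miR-30c-1-3p, the counterpart of miR-30c-2-3p, had VM minus TN differences of 0.17 ± 0.19 in dirty mice (edgeR, adjusted p = 0.633) and 0.16 ± 0.21 in clean mice (adjusted p = 0.636). miR-30e-3p, the counterpart of miR-30a-3p, had 1638, 1891 and 1956 CPM in Dirty_VM, against 2395, 2266 and 1450 CPM in Dirty_TN, and 2393, 2808 and 2763 CPM in Clean_VM, against 1460 and 1764 CPM in Clean_TN. Its difference was -0.16 ± 0.20 in dirty mice (adjusted p = 0.712), where the groups overlapped, and 0.72 ± 0.23 in clean mice, where it passed (adjusted p = 0.0466). In clean mice it was the only one of the 8 to pass, where 17.4% of the rows did, 9.72% higher and 7.71% lower (53 and 42 rows, or 40 and 55 on unscaled totals). The call held under 5 of 14 other settings, and it was lost without Clean_TN library 2 or 3, Clean_VM library 2 or 3 or any one Dirty_VM library (adjusted p between 0.0168 and 0.305 with 1 of the 11 libraries left out).

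miR-30c-5p, whose values were the same on the rows of both of its hairpins and which therefore cannot be assigned to Mir30c-2 or Mir30c-1, had VM libraries on opposite sides of the TN libraries in the 2 kinds of mice. It had 5956, 6663 and 7843 CPM in Dirty_VM, against 3980, 4129 and 5450 CPM in Dirty_TN, and 4953, 4330 and 4092 CPM in Clean_VM, against 6003 and 5384 CPM in Clean_TN. All Dirty_VM libraries lay above Dirty_TN and all Clean_VM libraries below Clean_TN, where 16.9% of the rows were higher without overlap in dirty mice, 24.4% lower without overlap in clean mice, and 1.83% without overlap in opposite directions. Its difference was 0.59 ± 0.18 in dirty mice (edgeR, adjusted p = 0.0475), where it was the only one of the 8 to pass and 12.1% of the rows did (6.24% higher and 5.87% lower), and -0.35 ± 0.20 in clean mice, where it did not pass (adjusted p = 0.238). The interaction, which tests whether the 2 differences differ, was 0.95 ± 0.27 and did not pass either (adjusted p = 0.110). The call in dirty mice held under 5 of 14 other settings, and with 1 library left out it held only without Clean_TN library 2 or Dirty_TN library 3 (adjusted p between 0.00343 and 0.196).

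**Figure D3:**
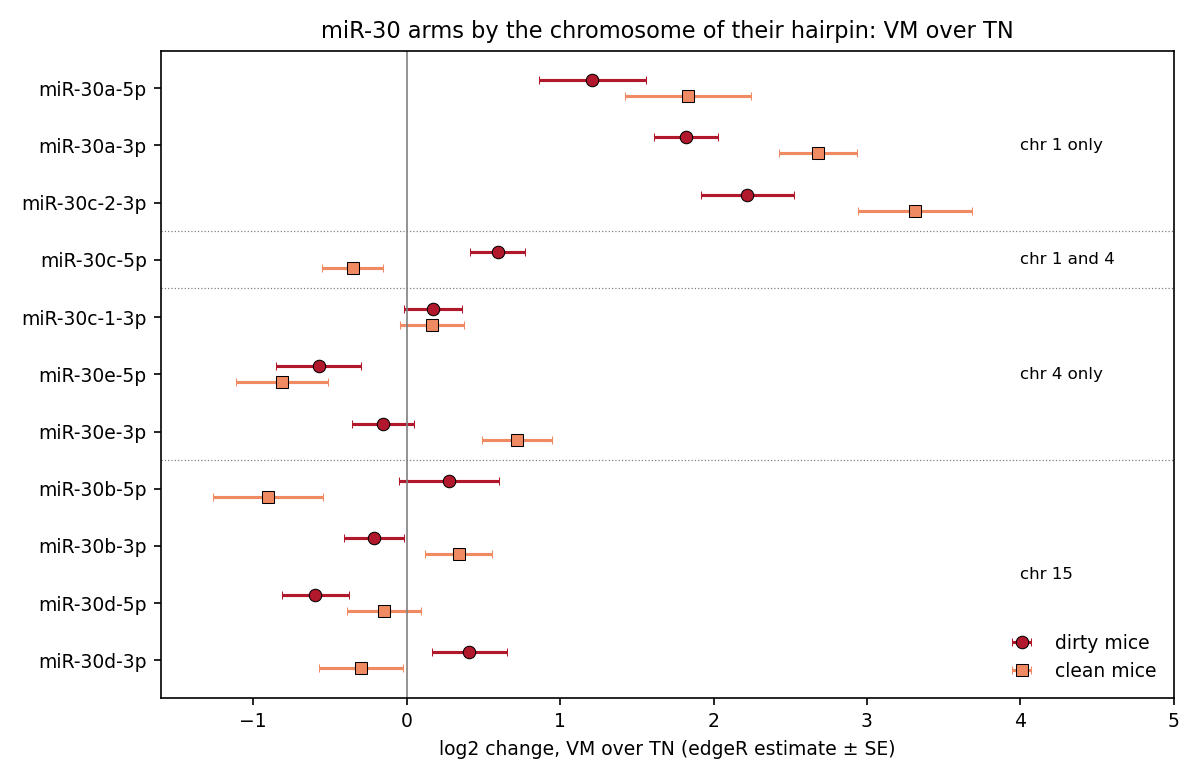
VM over TN log2 change (edgeR estimate ± SE, horizontal axis) of the 11 miR-30 products that passed the filter, grouped by the chromosome of their hairpin; circles are dirty mice and squares are clean mice. The 3 products of chromosome 1 alone lie between 1.21 and 3.31, and all others lie below 1 in both kinds of mice.

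Between dirty and clean mice, the 3 products had nearly equal levels in TN cells, while in VM cells the dirty level of both 3p arms was 0.476 to 0.532 times the clean level, without passing after adjustment. This is not the comparison on which they were picked, although both use the same libraries. In TN cells, miR-30a-5p averaged 325 ± 76.1 CPM in Dirty_TN and 344 ± 19.6 in Clean_TN (SD, n = 3 and 2), miR-30a-3p 99.0 ± 21.9 and 103 ± 14.4, and miR-30c-2-3p 10.6 ± 4.48 and 10.5 ± 0.0502. The log2 differences, dirty minus clean, were -0.08 (95% interval -0.91 to 0.75), -0.05 (-0.55 to 0.44) and 0.02 (-0.70 to 0.75), with libraries that overlapped in all 3 cases (23.3% of the 545 rows had no overlap) and edgeR adjusted p-values of 0.952, 0.952 and 0.976. The median over the 545 rows was 0.16 in this contrast. With 3 and 2 libraries, a difference of the size seen in VM cells lies within the TN interval of miR-30a-5p only.

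In VM cells, miR-30a-3p averaged 349 ± 45.4 CPM in Dirty_VM and 655 ± 60.3 in Clean_VM (SD, n = 3 each), a log2 difference of -0.91 ± 0.20 (95% interval -1.35 to -0.47), or 0.532 times the clean level. miR-30c-2-3p averaged 50.0 ± 16.1 CPM in Dirty_VM and 105 ± 7.31 in Clean_VM, a difference of -1.07 ± 0.29 (-1.69 to -0.45), or 0.476 times. miR-30a-5p averaged 753 ± 358 CPM in Dirty_VM and 1226 ± 488 in Clean_VM, a difference of -0.70 ± 0.34 (-1.45 to 0.04), and its libraries overlapped. Every Dirty_VM library lay below every Clean_VM library for both 3p arms, a pattern that 8.99% of the 545 rows showed. The median over all rows was 0.08.

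None of the 3 passed in VM cells after adjustment over the 545 rows by edgeR's quasi-likelihood test. The adjusted p was 0.0890 for miR-30a-3p (unadjusted 0.000653), 0.136 for miR-30c-2-3p (unadjusted 0.00249) and 0.377 for miR-30a-5p (unadjusted 0.0616). No row of the table passed (0%), with 81 at an unadjusted p under 0.05, and DESeq2 called 22. Both 3p arms were among those that DESeq2 called, with -0.97 for miR-30a-3p (adjusted p = 0.000747) and -1.14 for miR-30c-2-3p (adjusted p = 0.00311). They also passed in edgeR with no filter on low counts (adjusted p = 0.00585 and 0.00628) and with the 6 VM libraries fitted alone (adjusted p = 0.0123 and 0.0176). Of the 13 other settings, 10 gave no call for either arm. Without Dirty_TN library 3, which enters this contrast only through the shared scaling and spread, the adjusted p was 0.00773 for miR-30a-3p and 0.0248 for miR-30c-2-3p, and 26 rows passed. With 1 of the 11 libraries left out, miR-30a-3p did not pass in 7 fits and miR-30c-2-3p in 9.

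The ratio of means was below 1 at both depths. Among the shallower libraries, the log2 ratio of Dirty_VM to Clean_VM was -0.74 for miR-30a-3p, -1.08 for miR-30c-2-3p and -0.91 for miR-30a-5p, from 2 Dirty_VM and 1 Clean_VM library. Among the deeper libraries it was -1.03 for miR-30a-3p, -1.20 for miR-30c-2-3p and -1.03 for miR-30a-5p, from 1 Dirty_VM and 2 Clean_VM libraries. Marker sums of other cell types overlapped between Dirty_VM and Clean_VM in every list.

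**Figure D4:**
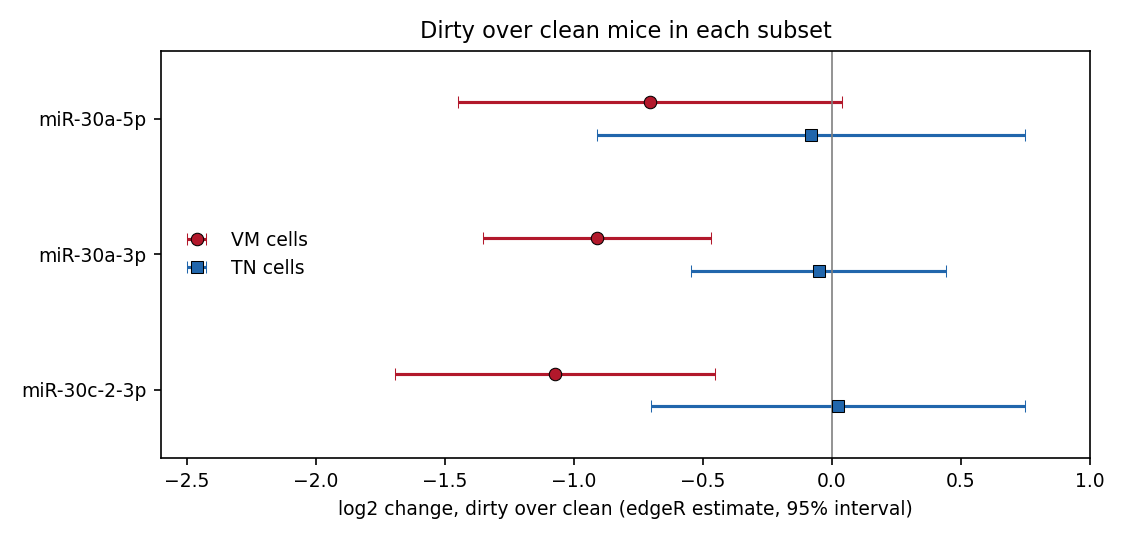
Dirty over clean log2 change of each product (edgeR estimate with its 95% interval, horizontal axis) in VM cells (circles) and TN cells (squares). In VM cells the intervals of both 3p arms lie below 0, and in TN cells all 3 intervals include 0; none passed after adjustment over all rows.

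Whether the dirty minus clean difference itself differed between VM and TN cells was tested as an interaction. It was -0.86 ± 0.31 for miR-30a-3p (edgeR, adjusted p = 0.203, unadjusted 0.0156), -1.10 ± 0.44 for miR-30c-2-3p (adjusted p = 0.240, unadjusted 0.0283) and -0.62 ± 0.52 for miR-30a-5p (adjusted p = 0.573). No row passed this test (0%), with 93 at an unadjusted p under 0.05 and 41 called by DESeq2. Averaged over both subsets, the dirty minus clean difference was -0.48 ± 0.15 for miR-30a-3p (adjusted p = 0.683), -0.52 ± 0.22 for miR-30c-2-3p (adjusted p = 0.837) and -0.39 ± 0.26 for miR-30a-5p (adjusted p = 0.930). In that average no row passed (0%), with 28 at an unadjusted p under 0.05 and 1 called by DESeq2, and in TN cells none passed (0%), with 38 and 3.

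The dirty minus clean differences of the 8 other family members lay on both sides of 0 in VM cells, between -0.54 and 0.61. None of them passed between dirty and clean mice in VM cells, in TN cells or in the average by edgeR. miR-30e-3p had -0.54 ± 0.20 in VM cells (edgeR, adjusted p = 0.209) and, like miR-30a-3p and miR-30c-2-3p, its Dirty_VM libraries all lay below its Clean_VM libraries, as in 8.99% of the rows. The same held for miR-30b-3p, with -0.24 ± 0.20 (edgeR, adjusted p = 0.633). miR-30c-5p had 0.61 ± 0.18 (adjusted p = 0.164) with every Dirty_VM library above every Clean_VM library, as in 12.1% of the rows. So did miR-30b-5p, with 0.60 ± 0.33 (edgeR, adjusted p = 0.424). miR-30c-1-3p had 0.08 ± 0.19 (adjusted p = 0.874), next to -1.07 for its counterpart miR-30c-2-3p. Calls depended on the setting here too. In VM cells miR-30c-5p passed in DESeq2 (adjusted p = 0.0454), with the 6 VM libraries fitted alone (0.0377) and without Dirty_TN library 3 (0.0336), and miR-30e-3p passed without that library (0.0456). In TN cells miR-30c-5p (-0.71, adjusted p = 0.0308) and miR-30b-5p (-1.24, adjusted p = 0.0389) passed without that library. The interaction passed for miR-30e-3p in DESeq2 (adjusted p = 0.0489) and for miR-30b-5p with no filter (0.0286), and without Dirty_TN library 3 for both (0.0216 and 0.0120).

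Among 247 miRNAs with a mean of at least 10 CPM, likeness was measured as the root mean square difference of log2 CPM profiles over the 11 libraries, each centred on its own mean. The closest profile to miR-30a-3p was that of miR-30c-2-3p, and the reverse held too, at 0.39 log2 units, where the median over all miRNAs was 1.23 for miR-30a-3p and 1.49 for miR-30c-2-3p. miR-30a-5p ranked 5 in likeness to miR-30a-3p at 0.57, but miR-30a-3p ranked only 11 from the viewpoint of miR-30a-5p, and miR-30c-2-3p ranked 58 at 0.75. These products were all picked for high counts in VM compared with TN cells, which by itself draws their profiles together.

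Outside the locus, the profiles nearest to miR-30a-5p were miR-146a-5p (0.41), miR-504-5p (0.50) and miR-130b-5p (0.53). miR-146a-5p, a brake on NF-kappaB signalling in immune cells, averaged 19910 ± 5549 CPM in Dirty_VM, 19878 ± 4347 in Clean_VM, 9174 ± 744 in Dirty_TN and 9883 ± 677 in Clean_TN. Those nearest to miR-30a-3p were miR-139-3p (0.41), miR-504-5p (0.46) and miR-139-5p (0.49), and the same 3 were nearest to miR-30c-2-3p (0.54, 0.77 and 0.76). miR-139-3p averaged 489 ± 143 CPM in Dirty_VM, 824 ± 88.2 in Clean_VM, 195 ± 94.3 in Dirty_TN and 100.2 ± 4.01 in Clean_TN, with the mean of Clean_VM again above that of Dirty_VM, while miR-139-5p, the other arm of its hairpin, averaged 10292 ± 1247, 9446 ± 1164, 2876 ± 21.5 and 3035 ± 71.8 CPM in the same order of groups. All 11 libraries enter both profiles of a pair, and the likeness is a description with no test.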

How the data were processed

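Small RNA libraries were made with the NEBNext kit from 60 to 100 ng of RNA of 10000 sorted cells, with inserts of about 18 to 35 bp, per the labels' protocols. The authors deposited 1 table of expected counts, that is, estimated counts per mature miRNA and hairpin, of which 88.7% were whole numbers (equal to their rounded value). The build was mm10, per the submitters' processing notes, and neither the read aligner nor the counting tool or miRNA annotation is given in the sources used here. Library totals ranged over 2614396 to 16312004 counts. A row that repeated the name and values of another was dropped (120 rows, 0.889% of the counts). Counts were rounded, filterByExpr kept 545 rows of 524 miRNAs with 99.99% of the counts, and 1 model over all 11 libraries was fitted with edgeR 4.0.16 (TMM, robust quasi-likelihood, 1 mean per group, two-sided tests, Benjamini-Hochberg over the 545 rows, threshold 0.05). SEs were worked back from the F statistic. DESeq2 1.42.0 was an alternative. Ratios and summed levels were compared with exact permutation tests over libraries, with 0.5 added to each count in the ratios only. The steps were tested on simulated counts. The members and all lists were chosen with earlier results of these data known. Named miRNAs were the 3 products, family members that passed, the most abundant arm of each family hairpin, seed partners, and the 3 nearest profiles. Sequences matched RefSeq by name for 8 of 12 family names. Other scalings, filters, depth subsets and single libraries left out were tried as alternatives.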

Additional observations from a re-analysis of the deposited data

Results flagged for a closer look

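miR-30c-5p, a product of both Mir30c-2 and Mir30c-1, stood out because its VM and TN libraries separated in opposite directions in the 2 kinds of mice, although in clean mice the difference did not pass (adjusted p = 0.238). The VM minus TN difference in dirty mice less that in clean mice was 0.95 ± 0.27 on the log2 scale (edgeR, adjusted p = 0.110 over 545 rows). Without Dirty_TN library 3 it was 1.29 (adjusted p = 0.00187). Under the 13 other settings it lay between 0.91 and 1.22, and it passed in DESeq2 (adjusted p = 0.00886) and with a filter of 10 CPM (adjusted p = 0.0438).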

How the results depend on the processing

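All 222 values of the 3 products for VM against TN under other settings, single libraries left out included, were above 0. The products were picked for that difference in these same libraries, so this count is a description only. All 72 values for dirty against clean mice in VM cells were below 0. They come from refits of the same libraries, so this count too is a description only. Calls between dirty and clean mice, however, depended on the setting. In VM cells miR-30a-3p passed in DESeq2 (-0.97), with no filter (-0.97) and in the 2 groups alone (-0.95), and miR-30c-2-3p passed in the same fits (-1.14, -1.12 and -1.12). With 1 library left out, miR-30a-3p lay between -1.16 and -0.76 and passed without Clean_VM library 1 or any one Dirty_TN library, and miR-30c-2-3p lay between -1.48 and -1.01 and passed without Dirty_TN library 1 or 3. miR-30a-5p lay between -1.27 and -0.51 without a call. The interaction of miR-30a-3p lay between -1.03 and -0.60 and passed without Dirty_TN library 3 (adjusted p = 0.0474). Rows called in VM cells were 22 in DESeq2, 16 with no filter, 18 in the 2 groups alone, 2 on library totals, 2 at 10 CPM and 0 to 26 with 1 library left out. In TN cells they were 3, 4 (no filter) and 0 to 28; averaged, 1, 1 (no filter) and 4 (shallower libraries); and for the interaction 41, 30 (no filter), 16 (10 CPM), 1 (shallower) and 0 to 73, where the first value is DESeq2. The cause was not tested. Near 0, signs turned: miR-30c-2-3p in TN cells was -0.059 in DESeq2, -0.066 with its size factors, -0.20 on library totals, -0.15 with upper-quartile factors, -0.058 with no filter, -0.073 at 10 CPM, -0.054 with rows summed per miRNA, -0.067 with the replicate block, -0.56 in shallower libraries, -0.078 in the 2 groups alone, -0.074 with identical rows kept, and -0.50 to 0.060 with 1 library left out. In the same contrast miR-30a-5p was 0.00087 with depth as a term, and miR-30a-3p lay between -0.29 and 0.0011 with 1 library left out. VM minus TN in clean mice moved to 2.46 (library totals), 2.17 (in shallower libraries), 2.85 (in deeper libraries) and 2.42 to 2.80 (1 library left out) for miR-30a-3p. For miR-30c-2-3p it moved to 3.09 (library totals), 3.21 (upper-quartile), 3.20 (10 CPM), 3.18 (in shallower libraries), 3.22 (in deeper libraries), 3.21 (2 groups alone) and 3.14 to 3.32. miR-30a-5p in dirty mice was 0.49 in deeper libraries, and miR-30a-3p averaged 1.88 in shallower libraries. Library totals moved the median of all rows in clean mice to -0.13, against 0.08 with TMM. Rows called for VM against TN were 56 with the replicate block, 30 in the shallower and 27 in the deeper libraries and 33 to 120 in clean mice, 17, 10 and 42 to 94 in dirty mice (107 with identical rows kept), and 35 and 47 averaged. The log2 ratio of miR-30a-5p to miR-30a-3p, dirty minus clean, was -0.29 in shallower libraries and -0.10 to 0.25 with 1 library left out, and that of miR-30c-2-3p to miR-30a-3p -0.22 to 0.049. The seed pool without miR-30a-5p, VM minus TN, was -0.20 with both identical rows of miR-30c-5p, -0.048 with miR-30c-5p and miR-30e-5p only, -0.11 in shallower libraries, -0.34 in deeper libraries, -0.31 with the replicate block, all without an unadjusted p under 0.05, and -0.32 to -0.20 with 1 library left out. Dirty minus clean it was -0.0096 with DESeq2 size factors, -0.12 in shallower libraries and -0.016 to 0.11. Among relatives, miR-30c-1-3p turned in clean mice (-0.055 on library totals, -0.12 in shallower libraries, -0.11 to 0.26 with 1 library left out) and averaged (-0.012 in shallower libraries). miR-30e-3p averaged turned to -0.083 in shallower libraries, miR-30b-5p in dirty mice lay between -0.075 and 0.78, and miR-30c-5p averaged between -0.0077 and 0.17. Whether replicate numbers pair the libraries could not be decided, since deviations were taken from means of only 2 or 3 libraries. Deviations of same-numbered libraries correlated between -0.546 and 0.456, and 3 of 11 matched best with their own number. The replicate block changed no call of the 3 products. Identical rows kept and the narrower seed pools were chosen after the data were seen.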
